A study of Mus musculus with 6 samples.

Results

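The 9 genes described here mark the oligodendrocyte lineage, with emphasis on its precursor cells: Pdgfra, Cspg4, Ptprz1, Gpr17, Olig1, Olig2, Sox10, Cacng4 and Lhfpl3. They were picked by gene symbol from a fixed list, and all 9 were found among the 24346 symbols of each library. Each library is hippocampal RNA of a 12-month-old C57BL/6 mouse: 3 libraries came from TonEBP+/- mice (HET 1 to HET 3) and 3 from wild-type littermates (TonEBP+/+; WT 1 to WT 3). Nfat5 is the gene for TonEBP, an NFAT-related transcription factor that cells use against hypertonic stress. The TonEBP+/- mice carry 1 disrupted allele in every cell, so the genotype is not limited to the oligodendrocyte lineage. The labels do not say that the 3 libraries of a genotype come from separate animals, and the p-values measure the spread between these libraries.

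Oligodendrocyte precursors are dividing glial cells that persist in the adult brain and keep producing myelinating oligodendrocytes. They respond to platelet-derived growth factor through the receptor Pdgfra and carry the proteoglycan NG2, encoded by Cspg4. Olig1, Olig2 and Sox10 encode transcription factors that are kept through the whole lineage, while Gpr17 marks the short stage of commitment before myelin genes are switched on. Several of these genes are also read from other cells: Pdgfra from fibroblasts, Cspg4 from pericytes and smooth muscle, and Ptprz1 from astrocytes. In RNA of whole tissue, fewer cells of a type and less RNA per cell cannot be told apart.

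Pdgfra and Lhfpl3 are the members in which the genotypes did not overlap, in opposite directions, and both lie on chromosome 5. Their promoters are shown for that reason, as the 250 bases before the start that the RefSeq promoter table gives, on the plus strand (GRCm38.p6), at chr5:75152001-75152250 for Pdgfra and chr5:22745804-22746053 for Lhfpl3. For Pdgfra that start lies inside the RefSeq gene span (75151322 to 75198206), so the window is within the span and not before it. Neither stretch holds a base of an annotated exon of its own gene in GENCODE.
Pdgfra: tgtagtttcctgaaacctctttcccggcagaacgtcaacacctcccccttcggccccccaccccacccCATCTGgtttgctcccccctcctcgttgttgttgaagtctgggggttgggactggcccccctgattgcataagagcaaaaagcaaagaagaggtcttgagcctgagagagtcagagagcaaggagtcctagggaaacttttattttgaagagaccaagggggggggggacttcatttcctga
Lhfpl3: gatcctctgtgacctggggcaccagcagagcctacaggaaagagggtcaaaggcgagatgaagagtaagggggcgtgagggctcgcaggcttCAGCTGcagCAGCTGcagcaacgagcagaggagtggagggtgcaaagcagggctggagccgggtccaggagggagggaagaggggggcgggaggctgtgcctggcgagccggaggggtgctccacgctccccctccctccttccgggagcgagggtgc
Capitals mark matches to 2 E-box words on either strand: CAGCTG, which reads the same on both, and CAGATG, which reads CATCTG on the opposite strand. The E-box is a kind of site that basic helix-loop-helix factors such as Olig2 bind. Pdgfra held 1 match to CAGATG, and Lhfpl3 held 2 matches to CAGCTG. Of 32851 promoter windows of 250 bases, 14.4% held CAGATG and 13.0% CAGCTG on either strand. The word TGGAAA, the core letters of the element bound by TonEBP (TTTCCA on the other strand), was matched 0 times in the windows of Pdgfra, Lhfpl3, Cspg4, Ptprz1 and Olig2, the 5 of 9 members found in the RefSeq table, and 18.6% of all windows held it. These matches describe letters in a short window and do not show binding.

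The deposited values behave as log2(FPKM + 1), where FPKM is fragments per kilobase of transcript, scaled to the depth of the library. Levels below are in FPKM, and differences are TonEBP+/- minus WT on the log2(FPKM + 1) scale, which understates the change of genes at low levels. From the spacing of low values, the depth was about 7890000 (HET 1) to 12500000 (HET 3) fragments. At that depth a single fragment on 1 kb of transcript counts 0.0797 to 0.127 FPKM. Nfat5 was at 8.25, 9.31 and 8.42 FPKM in HET 1 to HET 3 and at 10.5, 8.39 and 9.72 FPKM in WT 1 to WT 3, with overlapping genotypes. Since the site of the disruption is not given in the labels, this value does not check the genotype. Prox1, which marks dentate granule neurons of the hippocampus, was at 11.2 to 14.2 FPKM in TonEBP+/- and 13.1 to 14.6 FPKM in WT libraries. Libraries also differed in genes of tissue next to the hippocampus. The median of 14 thalamus and habenula genes lay at 0.06, -0.69 and -0.80 in HET 1 to HET 3, relative to the WT mean. In WT libraries it lay at -0.07 to 0.06. These genes were listed with earlier results of these data known. Transthyretin (Ttr), the main transcript of the choroid plexus, spanned 87.4 FPKM (HET 2) to 3338 FPKM (HET 3). HET 2 and WT 2 also differed from the other libraries at the floor of the values. Genes without any signal numbered 6917 in HET 2 and 6210 in WT 2, against 4262 in each other library. Tiny values just above the floor numbered 3 and 14, against 2199 to 2609. The source of this difference, and its part in the values of HET 2 and WT 2, was not tested.

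All 9 members were at 1 FPKM or more in all 6 libraries and entered the fit over 13122 genes. Their order of level, by the mean over the 6 libraries, was Olig1, Ptprz1, Sox10, Lhfpl3, Pdgfra, Cacng4, Olig2, Gpr17 and Cspg4. Olig1 stood above 91.1% of the genes tested and Cspg4 above 9.11%. The steps from Olig1 to Ptprz1, from Ptprz1 to Sox10 and from Olig2 to Gpr17 separated the genes in every library without overlap of their ranges. Ranges of the other neighbours overlapped, and Lhfpl3 exceeded Pdgfra in 3 of 6 libraries, which were the WT libraries.

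**Figure D1:**
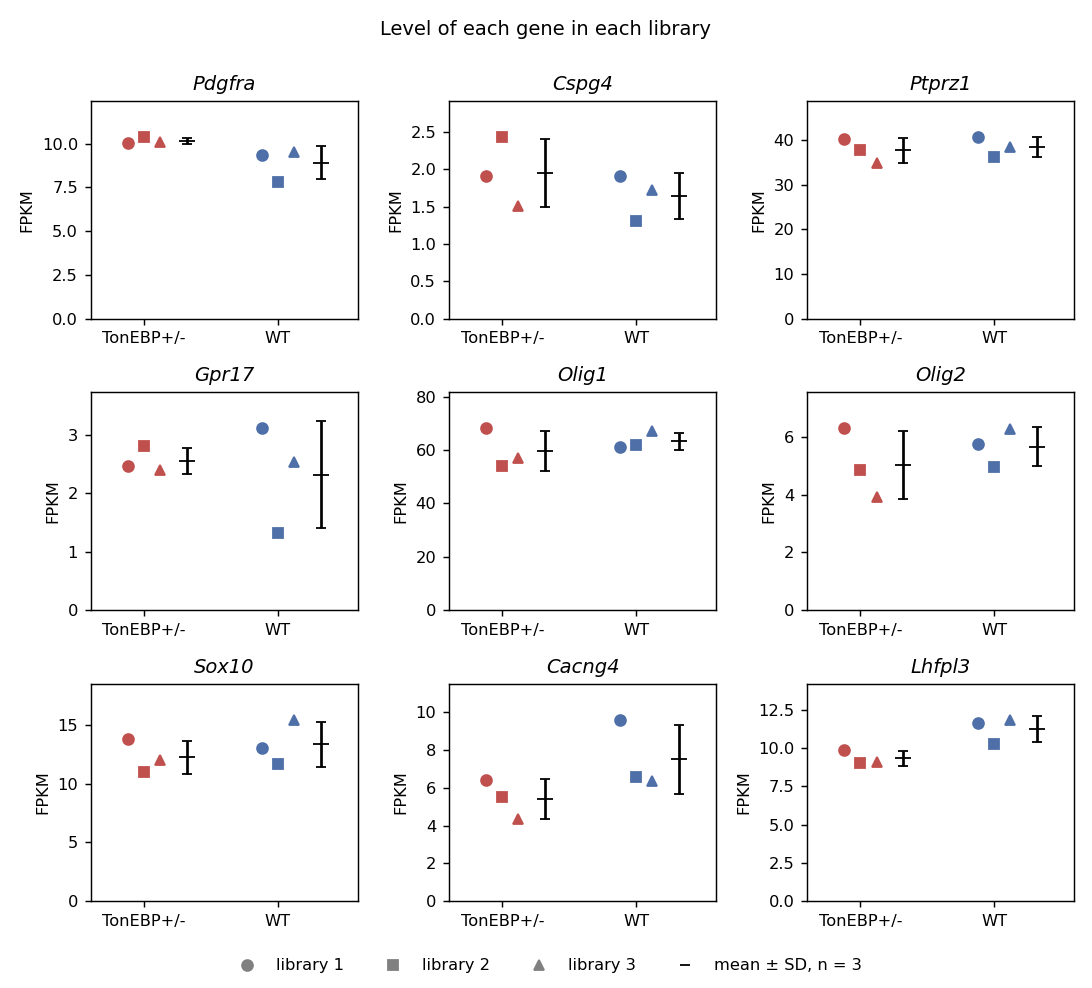
Level of each of the 9 genes in each library (FPKM, linear axis from 0), with TonEBP+/- libraries in red left of WT libraries in blue, symbols for libraries 1 to 3, and black bars for mean ± SD (n = 3). The genotypes do not overlap in Pdgfra (10.0 to 10.4 against 7.81 to 9.51 FPKM) or in Lhfpl3 (9.02 to 9.89 against 10.3 to 11.9 FPKM).

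The question put to these data was whether precursor and lineage genes differ between TonEBP+/- and WT hippocampus. In limma, 0 of the 9 members passed an adjusted p of 0.05 (adjusted over all 13122 genes, 1.00 for each), where 0% of all genes passed. The exact permutation test reaches 0.1 at best with 3 against 3 libraries. At an unadjusted p under 0.05 there were 2 members, Lhfpl3 and Cacng4, both lower in TonEBP+/-, beside 3.69% of all genes. The genotypes did not overlap in 2 of the 9, beside 8.52% of all genes (4.13% with TonEBP+/- higher and 4.39% with it lower). Of the 9 members, 3 had a positive and 6 a negative difference, with a median of -0.09, while all genes had a median of 0.00 and split evenly, with 6561 on each side. Without HET 1 the genotypes did not overlap in 5 members (Olig1, Olig2 and Cacng4 besides the other two), beside 20% of all genes in those 5 libraries.

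Among the surface receptors, Pdgfra, the receptor for platelet-derived growth factor on precursors, was at 10.0, 10.4 and 10.1 FPKM in HET 1 to HET 3 and at 9.36, 7.81 and 9.51 FPKM in WT 1 to WT 3. All TonEBP+/- libraries lay above all WT libraries, and WT 2 was the lowest. The means were 10.2 ± 0.190 FPKM in TonEBP+/- and 8.89 ± 0.943 FPKM in WT (SD, n = 3 each), a ratio of 1.14. The log2 difference was 0.18 (SE 0.0897, 95% interval -0.02 to 0.38, limma adjusted p = 1.00, two-sided exact permutation p = 0.1). Without WT 2 it was 0.10.

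Cspg4 encodes NG2, a proteoglycan of the precursor surface that also coats pericytes. It was at 1.91, 2.43 and 1.51 FPKM in HET 1 to HET 3 and at 1.91, 1.31 and 1.72 FPKM in WT 1 to WT 3. The genotypes overlapped, with HET 2 highest and WT 2 lowest. Its log2 difference of 0.15 (SE 0.150, 95% interval -0.18 to 0.49) was 0.04 without HET 2. The pericyte and mural genes, of which 10 of 13 were tested, also had their highest median in HET 2 (0.31 above the WT mean, against -0.16 to 0.09 in WT libraries). Their summed level was 77.2 to 116 FPKM in TonEBP+/- and 75.8 to 98.8 FPKM in WT, and none was at 0 in all libraries. Pdgfrb, the pericyte receptor, was at 3.31, 3.43 and 2.52 FPKM in HET 1 to HET 3 and at 3.63, 2.72 and 2.88 FPKM in WT 1 to WT 3. The part of mural cells in the Cspg4 value was not tested.

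Ptprz1 encodes a receptor phosphatase with chondroitin sulfate chains that binds pleiotrophin. It was at 40.3, 37.9 and 34.9 FPKM in HET 1 to HET 3 and at 40.7, 36.3 and 38.5 FPKM in WT 1 to WT 3, so that HET 3 was the lowest library and the genotypes overlapped. With a log2 difference of -0.03 (SE 0.0769), its 95% interval of -0.20 to 0.14 was the narrowest of the 9. Astrocytes express Ptprz1 as well, and the median over their 13 marker genes was 0.12, -0.06 and -0.07 in HET 1 to HET 3 and 0.02, 0.05 and -0.07 in WT 1 to WT 3. Aqp4, the astrocyte water channel gene, differed by 0.02 (SE 0.0717) and Aldh1l1 by -0.01 (SE 0.0871).

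Gpr17, a G protein-coupled receptor gene of committed precursors, was at 2.47, 2.81 and 2.39 FPKM in HET 1 to HET 3 and at 3.11, 1.32 and 2.52 FPKM in WT 1 to WT 3. WT libraries held both the highest and the lowest value, and the TonEBP+/- libraries lay between them. The log2 difference of 0.14 (SE 0.192, 95% interval -0.29 to 0.57) took the opposite sign without WT 2 (-0.10). Within genotypes Gpr17 had the largest spread of the 9, with a pooled SD of 0.31 on the log2 scale, beside a median of 0.12 over all genes tested.

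The 3 transcription factor genes all had negative differences and overlapping genotypes. Olig1 was at 68.1, 53.9 and 56.9 FPKM in HET 1 to HET 3 and at 61.0, 61.8 and 66.9 FPKM in WT 1 to WT 3, a log2 difference of -0.09 (SE 0.0912, 95% interval -0.29 to 0.11). Olig2, needed to specify the lineage, was at 6.30, 4.87 and 3.93 FPKM in HET 1 to HET 3 and at 5.76, 4.96 and 6.29 FPKM in WT 1 to WT 3. HET 1 was above all WT libraries and HET 3 the lowest of all, which gave -0.16 (SE 0.145, 95% interval -0.48 to 0.17). Sox10, which activates myelin genes, was at 13.8, 11.0 and 12.0 FPKM in HET 1 to HET 3 and at 13.0, 11.6 and 15.4 FPKM in WT 1 to WT 3, a difference of -0.11 (SE 0.113, 95% interval -0.36 to 0.14).

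In all 3 factors HET 1 stood above HET 2 and HET 3, so that their mean centred value was 0.16, -0.16 and -0.18 in HET 1 to HET 3, and 0.04, -0.06 and 0.20 in WT 1 to WT 3. HET 2 and HET 3 are also the libraries low in thalamus and habenula genes, a list chosen with earlier results of these data known. The part of neighbouring tissue in these values was not tested. Olig1 and Olig2 are neighbours on chromosome 16 (GRCm38; Olig2 at 91225550 to 91228677 and Olig1 at 91269769 to 91271939, 41.1 kb apart). Olig1 was 10.8, 11.1 and 14.5 times the level of Olig2 in HET 1 to HET 3 and 10.6, 12.5 and 10.6 times in WT 1 to WT 3.

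The largest differences of the 9, both negative, were in the remaining pair of membrane genes. Cacng4 encodes an auxiliary subunit of AMPA-type glutamate receptors, which precursors use to sense neuronal activity, and neurons express it too. It was at 6.42, 5.52 and 4.32 FPKM in HET 1 to HET 3 and at 9.58, 6.55 and 6.34 FPKM in WT 1 to WT 3. HET 1 lay just above WT 3, so the genotypes overlapped, and WT 1 stood far above the rest. The means were 5.42 ± 1.05 FPKM in TonEBP+/- and 7.49 ± 1.81 FPKM in WT (SD, n = 3 each), a ratio of 0.724. The log2 difference was -0.40 (SE 0.166, 95% interval -0.77 to -0.02, limma unadjusted p = 0.0411, adjusted p = 1.00, exact permutation p = 0.2). Without WT 1 it was -0.23 and without HET 1 it was -0.51. Neuron genes were lower in 8 of 10, and their median was -0.05, -0.02 and -0.16 in HET 1 to HET 3 and 0.06, -0.11 and 0.06 in WT 1 to WT 3. Their part in the Cacng4 value was not tested.

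Lhfpl3, a tetraspan membrane protein gene used as a marker of precursors, was at 9.89, 9.02 and 9.08 FPKM in HET 1 to HET 3 and at 11.6, 10.3 and 11.9 FPKM in WT 1 to WT 3. All TonEBP+/- libraries lay below all WT libraries. The means were 9.33 ± 0.489 FPKM in TonEBP+/- and 11.2 ± 0.864 FPKM in WT (SD, n = 3 each), a ratio of 0.830. The log2 difference was -0.24 (SE 0.0846, 95% interval -0.43 to -0.05, limma unadjusted p = 0.0168, adjusted p = 1.00, exact permutation p = 0.1). It stayed between -0.30 and -0.21 when each library was left out in turn. By unadjusted p it ranked 146 among the 13122 genes tested.

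**Figure D2:**
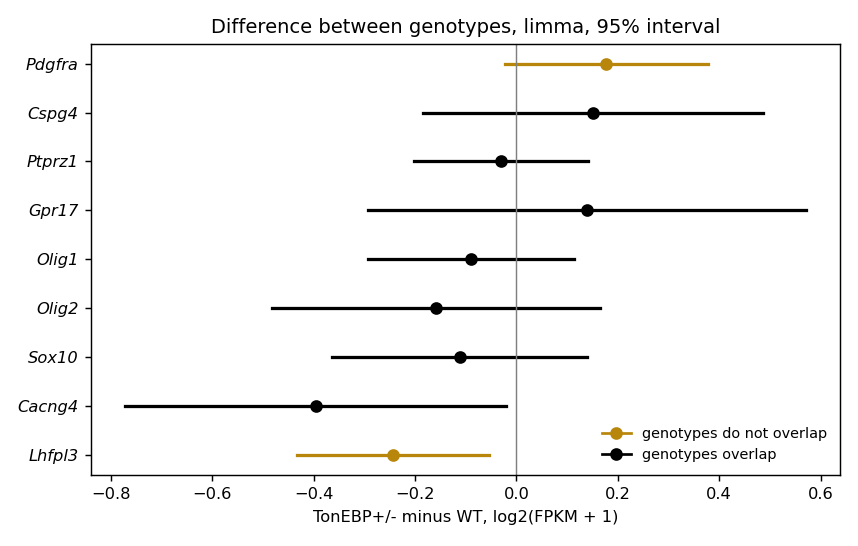
Difference between genotypes for each gene (TonEBP+/- minus WT, log2(FPKM + 1), linear axis), with the limma estimate as a point and its 95% interval as a line, and genes whose genotypes do not overlap in ochre. Intervals of Cacng4 (-0.77 to -0.02) and Lhfpl3 (-0.43 to -0.05) lie below 0, unadjusted for the 13122 genes tested.

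Pdgfra and Lhfpl3 stand at similar levels and both mark precursors, yet their order switched between genotypes. The ratio of Pdgfra to Lhfpl3 was 1.01, 1.15 and 1.11 in HET 1 to HET 3 and 0.805, 0.762 and 0.803 in WT 1 to WT 3. This ratio does not depend on the scaling of a library. The pair was chosen after its values were seen, because its members are the ones without overlap, and no test is given for it. Since they differ in opposite directions, separation of this ratio by genotype follows from that choice. Pdgfra is also read from fibroblasts. Of 14 fibroblast and meningeal genes, 11 were tested, with 0 without overlap beside 8.52% of all genes. All 11 were higher in TonEBP+/-, with 0 past the threshold. Their medians were -0.11, 0.53 and 0.21 in HET 1 to HET 3 and -0.03, 0.11 and -0.08 in WT 1 to WT 3, and their summed level was 101 to 166 FPKM in TonEBP+/- and 90.2 to 132 FPKM in WT. The matrix gene Dcn was at 19.9, 41.6 and 26.4 FPKM in HET 1 to HET 3 and at 22.4, 21.8 and 24.1 FPKM in WT 1 to WT 3. In HET 1, Dcn and the list median were below all WT libraries, while the summed level of 101 FPKM was within the WT range. The Pdgfra difference was 0.16 without HET 2 and 0.10 without WT 2. The part of fibroblasts in the Pdgfra value was not tested.

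**Figure D3:**
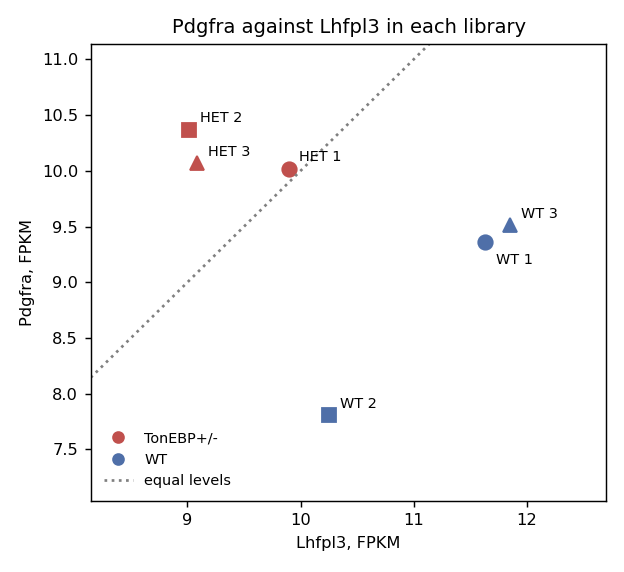
Pdgfra (vertical axis, FPKM) against Lhfpl3 (horizontal axis, FPKM) in each of the 6 libraries; both axes are linear and start above 0, and the dotted line marks equal levels. TonEBP+/- libraries (red) lie above the line, at ratios of 1.01 to 1.15, and WT libraries (blue) below it, at 0.762 to 0.805. Separation of the ratio by genotype follows from the choice of a pair without overlap, in opposite directions.

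Further genes of the lineage were set beside the 9, stage by stage. Of 15 other precursor genes 14 were tested, of which 10 were higher and 4 lower in TonEBP+/-, with 0 past the threshold, 0 without overlap and a median of 0.05. Those with the smallest p were Neu4, a sialidase gene (0.16, SE 0.116), Xylt1, which starts chondroitin sulfate chains (0.13, SE 0.0982), and Vcan, a chondroitin sulfate proteoglycan gene (0.14, SE 0.112). Vcan was at 3.26, 3.43 and 3.79 FPKM in HET 1 to HET 3 and at 2.90, 2.80 and 3.55 FPKM in WT 1 to WT 3, with overlap. The genotypes overlapped in each of the 14, while they did not overlap in 8.52% of all genes.

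Of 14 genes of committed precursors and new oligodendrocytes, 12 were tested, with 0 without overlap beside 8.52% of all genes. Of the 12, 3 were higher and 9 lower, with 0 past the threshold and a median of -0.04. Those with the smallest p were Nkx2-2, a transcription factor gene (-0.15, SE 0.152), Myrf, the activator of the myelin programme (-0.11, SE 0.109), and the zinc transporter gene Tmem163 (-0.13, SE 0.145).

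Mature myelin genes were lower in 21 of 22, by a median of -0.06, with 0 past the threshold. The genotypes did not overlap in 1 of the 22, beside 8.52% of all genes. That gene, Mog, a glycoprotein on the outside of myelin, was at 36.7, 29.9 and 36.6 FPKM in HET 1 to HET 3 and at 38.2, 37.6 and 40.4 FPKM in WT 1 to WT 3 (log2 difference -0.17, SE 0.0878). The connexin gene Gjc3, also among those with the smallest p, differed by -0.14 (SE 0.126), and by 0.02 without HET 2. HET 2 was the lowest of the 6 in 22 of 22 myelin genes, while it was the lowest in 2500 of the 13122 genes tested. The list median was 0.06, -0.30 and 0.06 in HET 1 to HET 3 and -0.09, -0.04 and 0.10 in WT 1 to WT 3. Without HET 2 the median difference was 0.06, and without WT 3 it was 0.00.

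HET 2, the library low in myelin genes, was the lowest library in 0 of the 14 other precursor genes and had their highest median, 0.10. The 9 genes described here, which include factors of the whole lineage, had their lowest median in HET 2 (-0.18), close to that in WT 2 (-0.16) and HET 3 (-0.14). Mbp, a main myelin protein gene, was at 2985, 2050 and 2731 FPKM in HET 1 to HET 3 and at 2631, 2807 and 2592 FPKM in WT 1 to WT 3. The ratio of Mbp to Pdgfra was lowest in HET 2, at 198, beside 298 in HET 1, 271 in HET 3 and 273 to 360 in WT libraries. Among the 9, Olig1 and Sox10 were lowest in HET 2 as well, whereas Pdgfra and Cspg4 were highest there. Lhfpl3 was lowest in HET 2, too, only slightly below HET 3.

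**Figure D4:**
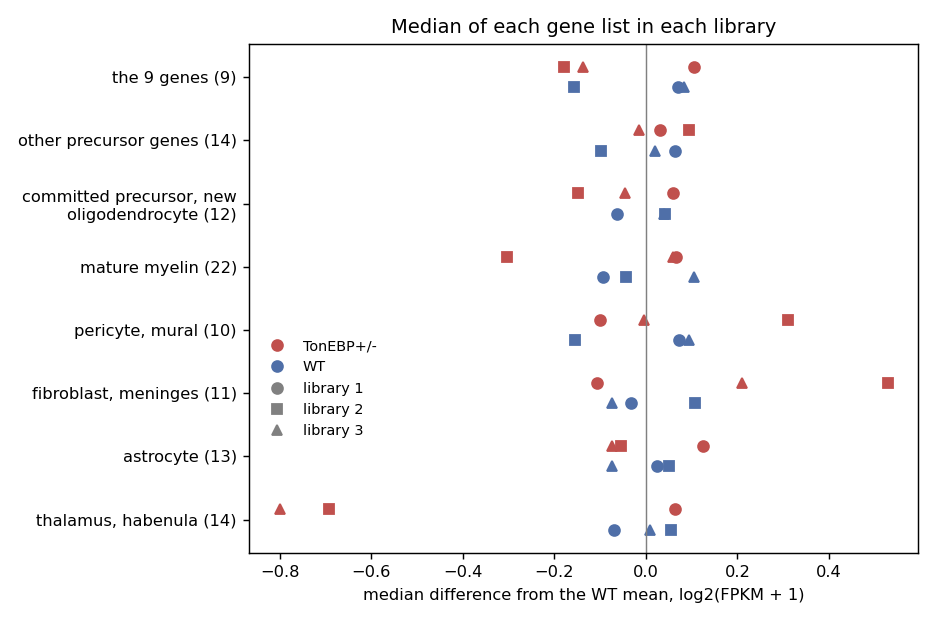
Median, over the tested genes of each list (their number in brackets), of the difference from the WT mean in each library on the log2(FPKM + 1) scale, with TonEBP+/- libraries in red above WT libraries in blue and symbols for libraries 1 to 3. HET 2 lies apart in mature myelin (-0.30) and in fibroblast genes (0.53), and HET 2 and HET 3 in thalamus genes (-0.69 and -0.80).

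Ligands and partners of the receptors followed. Of 19 such genes, 9 were higher and 10 lower in TonEBP+/-, with 0 past the threshold and a median of -0.02. The genotypes did not overlap in 1 of the 19, beside 8.52% of all genes. Pdgfa, the main ligand of Pdgfra, was at 14.6, 16.1 and 18.8 FPKM in HET 1 to HET 3 and at 14.9, 15.1 and 15.2 FPKM in WT 1 to WT 3. HET 1 lay below the WT libraries and the other TonEBP+/- libraries above them (log2 difference 0.12, SE 0.0918). Plat encodes tissue plasminogen activator, a protease that releases active PDGF-CC, another ligand of Pdgfra. It was at 11.7, 15.4 and 12.3 FPKM in HET 1 to HET 3 and at 10.3, 10.1 and 11.1 FPKM in WT 1 to WT 3, the 1 gene of this group without overlap (0.29, SE 0.103, limma unadjusted p = 0.0182, adjusted p = 1.00). Midkine (Mdk), a ligand of Ptprz1, differed by -0.24 (SE 0.126) and Pdgfd by 0.25 (SE 0.134). Pleiotrophin (Ptn), another ligand of Ptprz1, differed by 0.01 (SE 0.0704).

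Among 28 regulators of the lineage, 13 were higher and 15 lower, with 0 past the threshold and a median of -0.00. The genotypes did not overlap in 3 of the 28, beside 8.52% of all genes. Hes5, a Notch target whose product holds precursors back from differentiation, was at 14.1, 12.0 and 10.6 FPKM in HET 1 to HET 3 and at 10.2, 9.96 and 8.49 FPKM in WT 1 to WT 3 (0.32, SE 0.111, limma unadjusted p = 0.0166, adjusted p = 1.00). Astrocytes express Hes5 as well. Hdac1, a histone deacetylase gene, was at 18.1, 18.1 and 20.3 FPKM in HET 1 to HET 3 and at 15.8, 16.6 and 15.6 FPKM in WT 1 to WT 3 (0.22, SE 0.0750, adjusted p = 1.00). Sox5 was the third gene without overlap, at 8.84 to 9.88 FPKM in TonEBP+/- and 8.18 to 8.50 FPKM in WT (0.12, SE 0.0802), and it was named after its values were seen. Tcf7l2, which acts in oligodendrocyte maturation and is abundant in thalamus, was at 10.4, 4.69 and 3.92 FPKM in HET 1 to HET 3 and at 14.0, 9.79 and 9.43 FPKM in WT 1 to WT 3 (-0.80, SE 0.356). Its low libraries were those low in the other thalamus genes.

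The pattern of the 9 genes over the libraries, as the mean of their centred log2 values, was 0.08, -0.02 and -0.15 in HET 1 to HET 3 and 0.14, -0.14 and 0.09 in WT 1 to WT 3. The 5 genes most like it among 9188 genes with a mean of at least 5 FPKM were Nt5m (Pearson r = 0.983), Plch2 (0.979), Lamtor2 (0.978), Ndufv3 (0.977) and Ncdn (0.968), each over the same 6 libraries. An r above 0.9 was reached by 92 of the 9188 genes, and the points share library and depth. The 9 genes do not all follow this mean. In HET 2 it was 0.15 over the 4 surface receptors, -0.16 over the 3 transcription factors and -0.16 over the other 2. Ncdn was at 258, 247 and 233 FPKM in HET 1 to HET 3 and at 274, 221 and 265 FPKM in WT 1 to WT 3, with overlapping genotypes.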

How the data were processed

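Total RNA of 6 hippocampi was made into strand-specific libraries, per the labels' protocols, and TopHat and mm10 are the aligner and build named in the submitters' processing notes. The sources used here give neither the quantifier nor the annotation. The authors deposited 1 log2 value per gene symbol and library. The unit was read from the values: taking 2 to the power of the value, minus 1, as FPKM, 63.4% to 67.9% of low values per library (under 3.5 fragments) lay within 0.15 of a whole number of fragments, and base 2 gave clearer steps than base e or 10 in 6 of 6 libraries. The number of fragments is therefore an estimate.

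A gene was tested if 3 or more libraries reached 1 FPKM (13122 genes). The log2 values were fitted in limma 3.58.1 (R 4.3.3) on genotype alone, using eBayes with its trend and robust settings. P-values were adjusted by Benjamini-Hochberg over the 13122 genes, with a threshold of 0.05. The procedure was tested on simulated data of independent genes, with added changes larger than the difference of any member. That test does not cover differences as small as those of the members. Exact permutation tests were two-sided. List values are counts and medians, with no test. The 9 members and the other lists were chosen with earlier results of these data known. Named besides the members were the 3 genes with the smallest p in each lineage list (1 is not reported here), the 5 most alike in pattern, and defining markers. Gene positions are from RefSeq (GRCm38, the assembly mm10 names). Alternatives were quantile and median scaling, 2 other filters, moderation without the robust setting, 0.1 as pseudocount, the replicate number as a block, an adjusted p of 0.1 and each library left out. Figures were drawn with matplotlib 3.10.9.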

Additional observations from a re-analysis of the deposited data

How the results depend on the processing

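With all 6 libraries, the count of members past the threshold stayed at 0 under every scaling, filter, pseudocount and threshold tried, and so did the count over all genes. With a library left out, 0 to 8 of all genes passed (8 without HET 1, 1 each without HET 3, WT 1 or WT 2), and 0 of the 9 members. The smallest adjusted p of a member was 0.714 (Lhfpl3, without HET 1). The number of members without overlap was 2 to 5: without HET 1 it was 5 (Lhfpl3, Cacng4, Olig1, Olig2 and Pdgfra), beside 20% of all genes in those 5 libraries, and without WT 3 it was 3, beside 18.1%. Lhfpl3 and Pdgfra were among them in every case. This was fixed in advance, since leaving a library out cannot create overlap in a gene that has none with all 6 libraries. The median difference of the members was -0.19 to -0.02 with a library left out. With each library left out in turn, Ptprz1 lay between -0.079 and 0.023 (0.023 without HET 3 and 0.0094 without WT 1), Gpr17 between -0.10 and 0.31 (-0.10 without WT 2), and Gjc3 between -0.22 and 0.024 (0.024 without HET 2). The other 7 members and the other further genes tried kept their sign. Values of further named genes and lists under these alternatives were added after seeing the data.

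With a replicate block the median difference of the members was -0.09 and 0 members and 0 genes passed. The labels give no pairing beyond the number. Deviations of same-numbered libraries correlated at -0.21, -0.25 and -0.16 over genes. The stricter filter left out Cspg4 and Gpr17, which have no value there. Cspg4 and Gpr17, at the lowest levels of the 9, rest on the fewest fragments per kilobase, and with Olig2 and Cacng4 they have the widest intervals.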
